A study of Mus musculus with 18 samples.

Results

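Long noncoding RNA levels were compared between 2 sets of germ cell libraries from ICR mouse testis, an outbred stock, that were chosen by the measured level of 1 locus, 1700027A15Rik, and not by their labels. This locus lies at chr1:72984844-73025507 (mm10, plus strand), and its exons overlap those of Tnp1 on the other strand. Tnp1 encodes transition protein 1, a nuclear protein of spermatids. The first set, called the high libraries here, held the 5 libraries with 1700027A15Rik at 500 FPKM or more, out of 18 in the series. The second set, called the intermediate libraries, held the 3 libraries at 50 to 200 FPKM. Of the 13218 loci in the deposited table, 3260 reached 1 FPKM (a fragment count relative to transcript length and library size) in 3 or more of these 8 libraries and were compared.

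The high libraries were labelled plpSC replicate 3 (postnatal day 14), pacSC replicate 3 (day 21), rST replicates 2 and 3 (day 35) and elST replicate 2 (day 56). The intermediate libraries were labelled pacSC replicates 1 and 2 (day 21) and elST replicate 3 (day 56). The other 10 libraries were 3 each of priSG-A (day 6) and priSG-B (day 9), plpSC replicates 1 and 2, rST replicate 1 and elST replicate 1. Values of the 5 high libraries are given in this order below, and then those of the 3 intermediate libraries in theirs. The labels do not spell the type names out; SG, SC and ST are common short forms of spermatogonia, spermatocytes and spermatids. Cells of every type were STA-PUT fractions, collected by sedimentation speed, which depends on cell size, and such fractions can hold neighbouring cell types. No label names a genetic change, a treatment or a pool of animals, and none says whether the numbered samples came from separate preparations. The spread between libraries may therefore be technical, and the p-values below measure only that spread.

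Germ cells pass from spermatogonia through meiosis, where spermatocytes spend a long pachytene stage, to haploid round and elongating spermatids. Pachytene spermatocytes and round spermatids are known to transcribe many long noncoding RNAs that other tissues lack. The pachytene programme depends in large part on the transcription factor MYBL1 (A-MYB), and the spermatid programme on CREM and RFX2. In spermatids the histones are replaced by transition proteins and then by protamines.

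The values that set the sides were as follows, and they are a description and no finding. 1700027A15Rik stood at 874, 1195, 4539, 3175 and 875 FPKM in the high libraries, against 75.8, 84.9 and 73.0 FPKM in the intermediate libraries. No library of the 18 lay between 84.9 and 874 FPKM. Just outside the rule, priSG-A replicate 3 had 11.8 FPKM, and the other 9 libraries had at most 0.570 FPKM. The labels name a TruSeq RNA kit and do not state whether strand was kept. A read from the shared exon sequence may therefore belong to 1700027A15Rik or to Tnp1. The labels did not follow this order: the library labelled plpSC replicate 3 was on the high side, elST replicate 3 was with pacSC replicates 1 and 2, and rST replicate 1 was at 0. Coding genes that define spermatids and pachytene spermatocytes were not analysed here. The names spermatid-rich and pachytene-like could thus not be checked against such markers, and the sides are called by the rule.

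The sides also differed fully in AY036118, a locus known as derived from ribosomal RNA. It stood at 12221, 9242, 13911, 6509 and 1998 FPKM in the high libraries, against 7.44, 7.25 and 7.41 FPKM in the intermediate libraries. Depth and fragment length, both inferred from the steps between low FPKM values, split the same way. The high libraries had 31.6 to 48.9 M fragments (M, mega) of 200 to 212 bp, and the intermediate libraries had 64.9 to 72.6 M fragments of 264 to 266 bp. At 1 FPKM a 1-kb stretch thus held 31.6 to 48.9 fragments in a high library and 64.9 to 72.6 in an intermediate one. The side and these library properties cannot be told apart in the comparison, and no value within 1 AY036118 class exists for it. In bulk samples, fewer cells of a type and less RNA per cell cannot be told apart either.

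**Figure D1:**
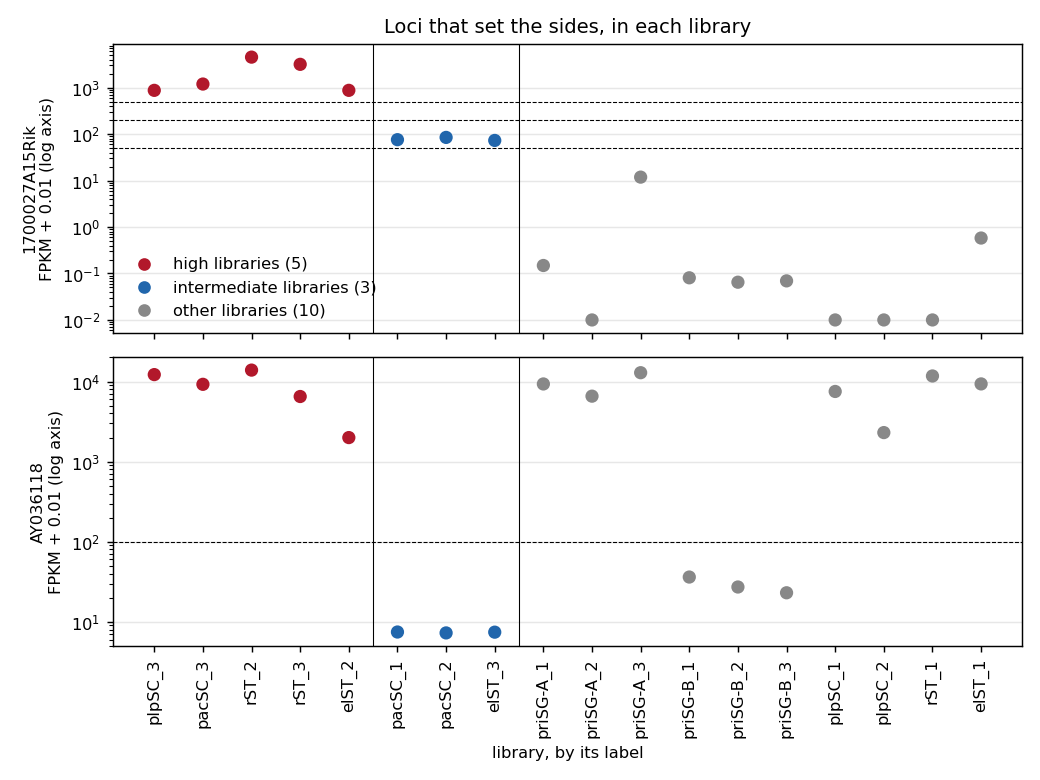
Levels of 1700027A15Rik (top) and AY036118 (bottom) in each of the 18 libraries, as FPKM + 0.01 on log axes, with 1 point per library and dashed lines at the bounds of the rule (500, 200 and 50 FPKM above, 100 FPKM below). The 5 high libraries lie above 800 FPKM for 1700027A15Rik and the 3 intermediate libraries at 73.0 to 84.9 FPKM, while AY036118 is under 8 FPKM in the intermediate libraries and at 1998 FPKM or more in the high ones.

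Across the 3260 loci the libraries fell into the same 2 sets. Pearson's r of log2(FPKM + 1) was 0.85 to 0.96 among the high libraries and 0.96 to 0.98 among the intermediate ones, and 0.45 to 0.72 between the sides. These correlations run across loci of libraries that share depth and fragment length within a side, and loci are not independent replicates. The library labelled elST replicate 2 was the high library closest to the intermediate side (0.71 to 0.72), and rST replicate 3 the farthest (0.45). Within the high side the highest pairs were plpSC replicate 3 with elST replicate 2 (0.96) and pacSC replicate 3 with rST replicate 3 (0.95). Each of these pairs joined libraries of different labelled types.

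Because the sides come from values measured in these same libraries, differences between them are given as a description, with no test. A locus is called higher or lower here when all 5 high libraries lay above, or below, all 3 intermediate libraries and the means of log2(FPKM + 1) differed by at least 1. By this rule 771 loci were higher in the high libraries (23.7% of those compared) and 703 were lower (21.6%). The other 1786 overlapped or differed by less. The difference (high minus intermediate) ran from -8.49 to 9.76, with a median of 0.09. At a difference of 2 or more the counts were 273 higher and 219 lower, and at 4 or more they were 22 and 24. The filter itself shaped part of this: 244 of the higher loci had no intermediate library at 1 FPKM, and 316 of the lower loci reached the filter only with the intermediate libraries. Among the 1616 loci at 1 FPKM or more in all 8 libraries, 444 were higher and 265 were lower.

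**Figure D2:**
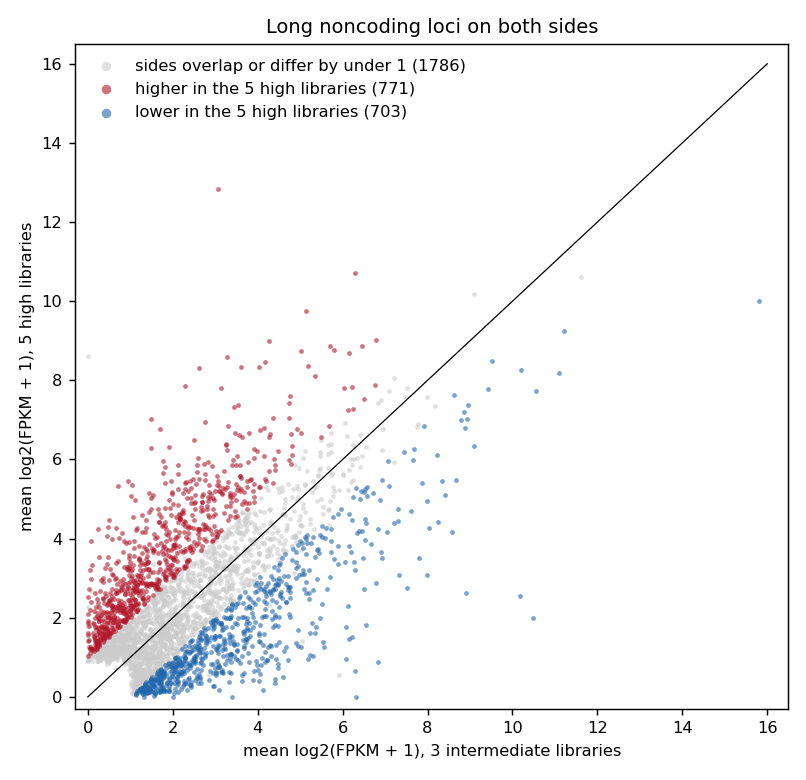
Mean log2(FPKM + 1) of each of the 3260 loci in the 5 high libraries (vertical) against the 3 intermediate libraries (horizontal), 1 point per locus, with the line of equal means. The 771 higher loci (red) spread above the line and the 703 lower loci (blue) below it, and the 1786 others (grey) lie between or overlap.

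The leading higher loci were mostly transcripts with no named function, several of them known from testis cDNA clones. After AY036118 and apart from 1700027A15Rik itself (differences 9.76 and 4.41), the largest differences were those of 1700009J07Rik, Gm5893, 1700029B22Rik and Wbscr25, at 5.33 to 5.70 on the log2 scale. 1700009J07Rik, a long intergenic noncoding RNA (lincRNA) at chr10:77893417-77896114, had 145, 319, 621, 756 and 143 FPKM in the high libraries, against 4.62, 4.80 and 5.94 FPKM in the intermediate libraries. Its means were 397 ± 280 FPKM (SD, n = 5) and 5.12 ± 0.718 FPKM (SD, n = 3), a ratio of 77.5. Both rST libraries were the highest for it, and plpSC replicate 3 and elST replicate 2 the lowest of the 5, with no overlap between the sides.

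Gm5893 (chr7:24818795-24840275, 10 exon blocks) showed the same order, with 106, 233, 452, 539 and 104 FPKM in the high libraries, against 3.94, 3.50 and 4.34 FPKM in the intermediate libraries. 1700029B22Rik lies inside Fgfr2 on the other strand and shares no exon with it. Its FPKM values were 59.3, 112, 271, 280 and 67.9 in the high libraries, against 1.99, 1.80 and 1.58 in the intermediate libraries. The lowest high value of this locus was thus far above the highest intermediate one. The lincRNA 4930571K23Rik (chr7:125368861-125371013) had the highest level of the leading group, at 448, 800, 1745, 1880 and 411 FPKM in the high libraries, against 33.3, 34.7 and 34.0 FPKM in the intermediate libraries. Its difference was 4.63. The lincRNAs 1700084D21Rik and 4930512J16Rik followed the same pattern, with differences of 5.06 and 4.81. Gm4665, which lies inside Osbpl10 on the other strand without sharing an exon, had a difference of 4.66.

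4 of the leading higher loci share exon sequence with a coding gene on the other strand, so their reads could come from either. Gm10501 (chr17:34976899-34981788) shares exons with Hspa1l, which encodes a heat shock protein known from spermatids. Its values were 289, 544, 779, 1033 and 280 FPKM in the high libraries, against 16.9, 19.3 and 18.6 FPKM in the intermediate libraries. Wbscr25 overlaps exons of Cldn3, a tight junction gene, and averaged 512 ± 385 FPKM in the high libraries and 8.63 ± 0.436 FPKM in the intermediate libraries (SD, n = 5 and 3). AI507597 overlaps exons of Tmem82, and 4930542D17Rik overlaps exons of Ccdc54. Their differences were 4.72 and 4.62, and no value of one side reached the other side. The part of the coding genes in these 4 differences was not tested.

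**Figure D3:**
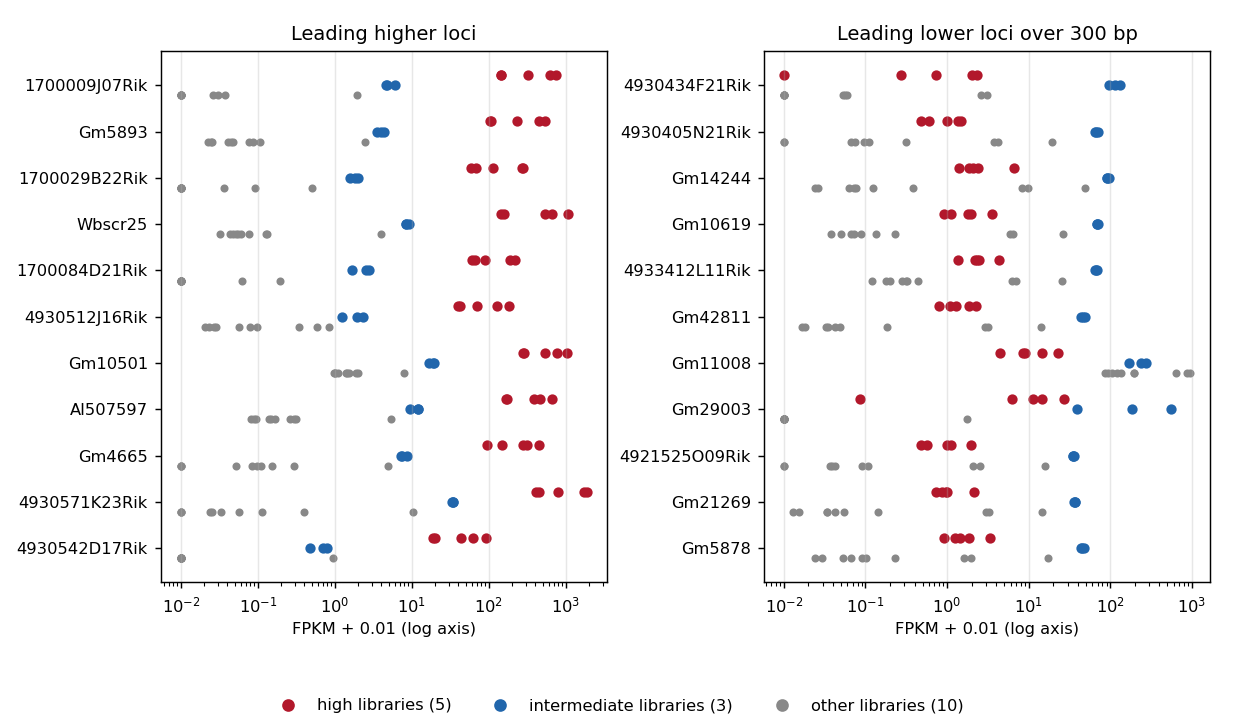
FPKM + 0.01 on log axes for the leading higher loci without the pair that sets the sides (left) and for the leading lower loci over 300 bp of exon (right), with 1 point per library: 5 high (red), 3 intermediate (blue) and 10 other libraries (grey). The high and intermediate points do not overlap for any locus drawn, and most of the other libraries lie below both sides, with the exception of Gm11008, where all 10 others lie above the high libraries.

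The leading lower loci by size were mainly very short. Of the 12 with the most negative difference, 9 had 300 bp of exon or less, among them Gm47551 (165 bp, difference -8.49), Gm43940 (165 bp, -7.61) and Gm44379 (164 bp, -6.31), which was listed at 0 in all 5 high libraries. Gm43778 (199 bp), Gm42959 (212 bp) and Gm37614 (210 bp), all TEC loci, differed by -5.64, -4.91 and -4.76. FPKM of such loci depend on the fragment length: a 300-bp transcript leaves 89 to 101 bp of effective length in the high libraries and 35 to 37 bp in the intermediate libraries, while a 1-kb transcript leaves 789 to 801 and 735 to 737 bp. The short loci named above, at 164 to 212 bp, are shorter than the inferred fragments of 264 to 266 bp in the intermediate libraries. By this reckoning they leave no effective length there. Those of 164 to 199 bp are also shorter than the fragments of 200 to 212 bp in the high libraries. The FPKM of such loci are thus no firm measure of level, and the part of fragment length in the short loci's differences was not tested. Among loci over 300 bp, 749 were higher and 662 lower, a restriction chosen after the values were seen.

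Among the longer loci, the largest lower difference was that of 4930434F21Rik (chr9:31463906-31515809, plus strand), at -5.95. It had 0.262, 0, 2.01, 2.29 and 0.714 FPKM in the high libraries, against 95.3, 133 and 115 FPKM in the intermediate libraries. The locus shares exon sequence with Tmem45b on the other strand. 4930405N21Rik, an unspliced locus at chr5:113320454-113321653 that the annotation leaves to be experimentally established (TEC), had 0.984, 0.474, 1.49, 0.583 and 1.36 FPKM in the high libraries, against 64.2, 70.2 and 67.2 FPKM in the intermediate libraries. Its neighbour Gm43353, at chr5:113324186-113325480 on the other strand, differed by -4.10. Both neighbours were thus near 1 FPKM or under it in the high libraries and above 20 FPKM in every intermediate library.

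Gm14244 (chr2:127691899-127700488, 5 exon blocks) had 2.36, 1.83, 2.07, 1.40 and 6.65 FPKM in the high libraries, against 90.1, 97.8 and 91.7 FPKM in the intermediate libraries. Gm10619 (chr7:73781429-73816503, minus strand) had 1.82, 1.09, 1.98, 0.912 and 3.56 FPKM in the high libraries, against 69.1, 71.2 and 68.6 FPKM in the intermediate libraries. For both loci elST replicate 2 was the highest of the 5 high libraries and rST replicate 3 the lowest. Gm21269 begins 42 bases beyond the start of Gm10619 and runs the other way (chr7:73816546-73838898, plus strand). It had 0.987, 0.855, 0.948, 0.716 and 2.10 FPKM in the high libraries, against 36.1, 37.0 and 36.8 FPKM in the intermediate libraries. The 2 transcripts of this divergent pair thus kept the same order of sides. Others of this kind were 4933412L11Rik, Gm42811, 4921525O09Rik and Gm5878, with differences of -4.13 to -4.32.

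Gm29003 and Gm11008 were less even. Gm29003, on the Y chromosome (66756992 to 66761183), had 27.2, 14.5, 11.3, 6.17 and 0.0765 FPKM in the high libraries, against 39.1, 186 and 548 FPKM in the intermediate libraries. The sides did not overlap, but the values within each side differed several fold, and this part of the Y chromosome carries near-identical gene copies among which reads can be split. Gm11008 (chr2:176097450-176100706) had 4.44, 22.6, 9.00, 8.54 and 14.4 FPKM in the high libraries, against 168, 235 and 274 FPKM in the intermediate libraries. It stood at 85.5 to 949 FPKM in the other 10 libraries, all of them above the high libraries.

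Higher and lower loci differed in where the extremes among the 5 high libraries lay. Among the 771 higher loci, the top value was in rST replicate 3 for 291, in rST replicate 2 for 214, in pacSC replicate 3 for 193, in plpSC replicate 3 for 54 and in elST replicate 2 for 19. Among the 703 lower loci, elST replicate 2 held the top of the 5 values for 447, and rST replicate 3 the lowest for 389. The libraries labelled plpSC replicate 3 and elST replicate 2 together lay below the other 3 high libraries for 465 of the higher loci (60.3%), against 19.8% of all loci compared. They lay above the other 3 for 397 of the lower loci (56.5%), against 31.6% of all loci compared. The median difference of these 2 libraries from the other 3 was -0.73 over all 771 higher loci, 0.51 over all 703 lower loci and 0.19 over all loci compared. This split of the high side was chosen after the values were seen.

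Medians over the called loci show the same gradation, and since the call itself used these values they are given only as a description. The median level of the higher loci ran from 6.64 FPKM in elST replicate 2 to 12.1 FPKM in rST replicate 3 among the high libraries, against 1.66, 1.70 and 1.59 FPKM in the intermediate libraries. The median of the lower loci was 1.76, 1.10, 1.12, 0.716 and 2.20 FPKM in the high libraries, against 7.70, 8.21 and 8.08 FPKM in the intermediate libraries. In the 10 libraries of neither side the median of the higher loci was at most 0.660 FPKM and that of the lower loci 0.538 to 3.96 FPKM, both highest in priSG-A replicate 3. The rule did not use these 10 libraries, and the higher loci were mostly low there. The median of the lower loci was 3.96 FPKM in priSG-A replicate 3, 1.56 FPKM in elST replicate 1 and 1.41 FPKM in rST replicate 1. In the rest of these libraries it was at most 0.974 FPKM.

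**Figure D4:**
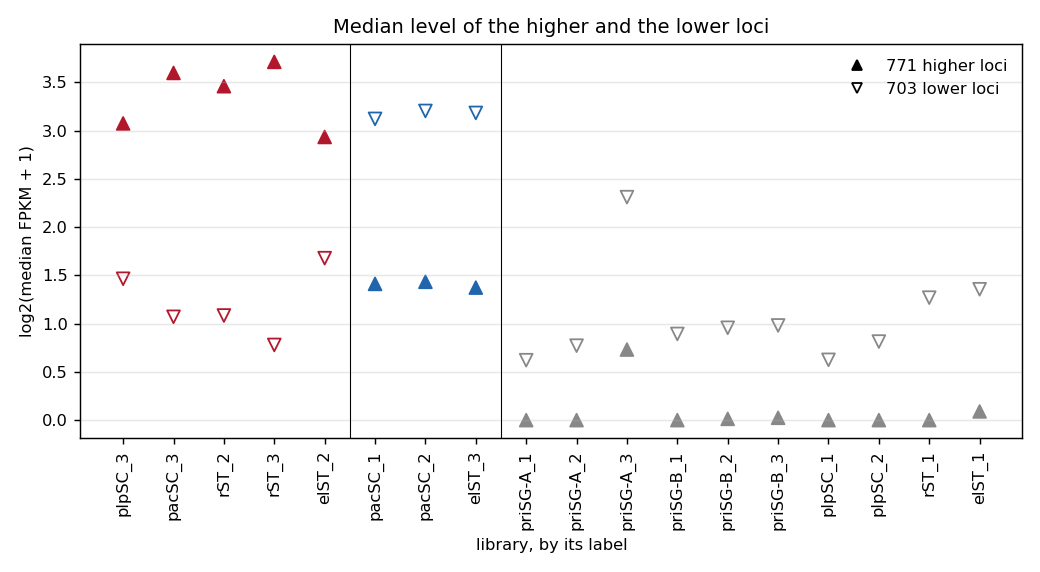
Median level of the 771 higher loci (filled triangles) and the 703 lower loci (open triangles) in each library, as log2 of the median FPKM + 1. The 2 medians cross between the high libraries (left) and the intermediate libraries (middle), and in the 10 other libraries (right) the higher loci lie near 0 except in priSG-A replicate 3.

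The libraries outside the rule give values for each AY036118 class. Of the 771 higher loci, 734 (95.2%) were higher in all 5 high libraries than in all 7 other libraries with AY036118 above 100 FPKM. The share over all loci compared was 50.2%. The call used the same values of the 5 high libraries, and the 7 others were outside the rule for their low 1700027A15Rik. A share above that of all loci is thus in part built in. Of the 703 lower loci, 565 (80.4%) were higher in all 3 intermediate libraries than in all 3 priSG-B libraries, the other ones with AY036118 below 100 FPKM, compared with 82.8% of all loci compared. The share for lower loci was thus near that of all loci. Between those 7 and the 3 priSG-B libraries, which carry other labels, the 7 were all above the 3 for 54 of the higher loci (7.0%, against 10.1% of all loci). They were all below for 113 of the lower loci (16.1%, against 6.75% of all loci). Lower loci were thus more often than loci at large also lower across the AY036118 classes outside the rule, and the part of library class in their difference was not tested.

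Known long noncoding RNAs leaned to the lower side. Of the 31 compared, 1 was higher (3.23%) and 14 were lower (45.2%), with a median difference of -0.87, against 23.7%, 21.6% and a median of 0.09 over all loci. Epb41l4aos (430 bp) was among the lower ones with a difference of -2.35. The lower ones were led by Rmrp, the RNA of the RNase MRP complex that trims ribosomal RNA precursors, and Terc, the RNA template of telomerase. Rmrp (281 bp) had 2188, 493, 1417, 253 and 2855 FPKM in the high libraries, against 51841, 66814 and 55398 FPKM in the intermediate libraries. Terc (chr3:96414437-96414833) had 2.23, 0.320, 1.32, 0 and 2.55 FPKM in the high libraries, against 34.8, 43.9 and 37.9 FPKM in the intermediate libraries. Both are short RNAs known to lack a usual poly(A) tail when mature. Rmrp was listed at 0 in the 3 priSG-B libraries and at 5423 FPKM or more in the 7 other libraries with high AY036118, so its order between the classes was the reverse there.

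Spliced host transcripts of small nucleolar RNAs, the guides of ribosomal RNA modification that are cut from introns, made up most of the other lower members. Of the 13 rows whose symbol is Snhg and a number, 10 were lower, 0 higher and 3 neither. Over all loci compared, 21.6% were lower and 23.7% higher. Snhg14 holds more than 1 of these rows, with differences of -1.36 (lower) and -0.4 (neither). This count of Snhg rows was made after the values were seen. Snhg12 had 1.29, 1.42, 1.93, 1.14 and 1.99 FPKM in the high libraries, against 10.6, 10.3 and 10.4 FPKM in the intermediate libraries. Snhg1 had 2.04, 3.33, 2.83, 1.99 and 3.69 FPKM in the high libraries, against 13.5, 16.3 and 13.6 FPKM in the intermediate libraries. For both, the 5 high libraries lay close together and all below the intermediate ones. Snhg6 differed by -2.06, Snhg5 by -1.71 and Snhg20 by -1.88. Zfas1, another such host, differed by -1.77. Gas5, also a host, did not meet the rule, with 29.9 to 47.8 FPKM in the high libraries, against 68.7 to 69.5 FPKM in the intermediate libraries and a difference of -0.91. Snhg3 (difference -2.24) shares exon sequence with Rcc1 on the same strand.

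Outside the rule, Snhg1 stood at 19.1 to 106 FPKM in the other 10 libraries, all above the intermediate ones. Snhg12 stood at 10.2 to 27.9 FPKM there, above the intermediate ones in all but plpSC replicate 1 (10.2 FPKM). Both were highest in priSG-B, where replicate 3 had the top values of 106 and 27.9 FPKM. Of the remaining known RNAs, Ftx, a noncoding gene near Xist in the X-inactivation centre, had 0.744 to 1.66 FPKM in the high libraries, against 5.01 to 5.43 FPKM in the intermediate libraries. Malat1, an abundant nuclear RNA, overlapped between the sides at 129 to 441 FPKM in the high libraries, against 111 to 156 FPKM in the intermediate libraries. Pvt1 and Tug1 did not meet the rule either, with differences of 0.51 and -0.81. Of the 8 testis long noncoding RNAs on a separate list, 1 was higher (1700027A15Rik itself) and 1 was lower. The lower one was Tslrn1, an X-linked testis-specific RNA, at 0.372 to 1.36 FPKM in the high libraries, against 2.22 to 3.59 FPKM in the intermediate libraries.

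Of the 6 microRNA host genes compared, 2 were higher and 2 lower, against 23.7% and 21.6% of all loci, and 6 loci are too few to set these shares apart. Mir99ahg, host of the miR-99a, let-7c and miR-125b cluster, had 19.04, 44.0, 23.1, 43.1 and 14.1 FPKM in the high libraries, against 7.01, 5.57 and 5.61 FPKM in the intermediate libraries. Mir670hg had 8.18, 18.1, 8.18, 17.3 and 10.9 FPKM in the high libraries, against 2.43, 2.47 and 2.22 FPKM in the intermediate libraries. For both, the libraries labelled pacSC replicate 3 and rST replicate 3 were the top 2. Mir17hg, host of the miR-17 to miR-92a cluster, had 0.0349, 0.265, 0.0307, 0.0610 and 0.312 FPKM in the high libraries, against 3.93, 4.06 and 4.10 FPKM in the intermediate libraries. Mir142hg (269 bp), known from blood cells, differed by -1.73.

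Markers of other testis cell types were compared as a list of 16 names, of which 14 stood in the table and 6 passed the filter. Mir99ahg was the only one of the 6 that was higher, and none was lower. Meg3, from the imprinted Dlk1-Dio3 region and known from somatic cells, just missed the minimum difference of 1. It had 0.947, 3.25, 2.47, 2.07 and 1.76 FPKM in the high libraries, against 0.877, 0.389 and 0.409 FPKM in the intermediate libraries, so the sides did not overlap. Its difference was 0.96, and it passed 1 with a pseudocount of 0.1 (1.72), without plpSC replicate 3 (1.12) and without pacSC replicate 1 (1.10). Mirg and Rian, from the same region, overlapped between the sides with differences of 0.78 and 0.08, and Neat1 overlapped at -0.45. The summed level of the 14 was 29.1 to 65.2 FPKM in the high libraries, against 19.1 to 23.5 FPKM in the intermediate libraries, and 36.8 to 326 FPKM in the other 10 libraries. Without Mir99ahg it was 10.1 to 21.1 FPKM in the high libraries, against 13.4 to 16.49 FPKM in the intermediate libraries, and the sides overlapped. Carmn, a smooth muscle RNA, was at 0 in pacSC replicate 2 and elST replicate 3, and H19, an imprinted RNA of fetal and mesenchymal cells, stayed under 1 FPKM in all 8 libraries.

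Loci with a symbol from the RIKEN adult testis cDNA libraries leaned to the higher side. Of 856 compared, 303 were higher (35.4%) and 122 lower (14.3%), with a median difference of 0.58, against 23.7%, 21.6% and a median of 0.09 over all loci. Opposite-strand loci, whose symbol ends in os, had 35 higher (30.7%) and 16 lower (14.0%) of 114, against the same shares over all loci. Itpr3os led them with 8.82, 16.3, 41.8, 39.3 and 7.51 FPKM in the high libraries, against 0.233, 0.109 and 0.203 FPKM in the intermediate libraries. Slfn5os, Aknaos and Usp46os1 differed by 3.51, 3.31 and 3.25. All 4 share exons with a coding gene on the other strand, Itpr3, Slfn5, Akna and Usp46 in this order.

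On chromosome X, which is silenced in pachytene spermatocytes as part of the sex body and is known to regain some transcription in spermatids, 13 of 55 loci were higher (23.6%) and 2 were lower (3.64%), with a median difference of 0.67. The lower ones were Ftx and Tslrn1. 1700003E24Rik (chrX:93156154-93156873) had 230, 460, 734, 728 and 202 FPKM in the high libraries, against 66.2, 73.5 and 69.6 FPKM in the intermediate libraries. 4930453H23Rik differed by 2.57. Gm14773 and Gm15104 averaged 225 ± 127 and 111 ± 54.0 FPKM in the high libraries (SD, n = 5), against 26.2 ± 1.10 and 12.8 ± 0.697 FPKM in the intermediate libraries (SD, n = 3). With each row counted once, the share of higher loci on X was near that of all loci, and the share of lower loci was under it. Many X rows had near-identical values, such as Astx4a, Astx4b, Astx4c and Astx4d, which differed by 1.16 to 1.17 and overlapped between the sides. Such rows may not be separate loci for a count, and the shares without them were not taken. By chromosome, the share of higher loci ran from 18.3% on chromosome 3 to 36.5% on chromosome 16, and that of lower loci from 14.4% on chromosome 8 to 31.7% on chromosome 3 among the autosomes.

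**Figure D5:**
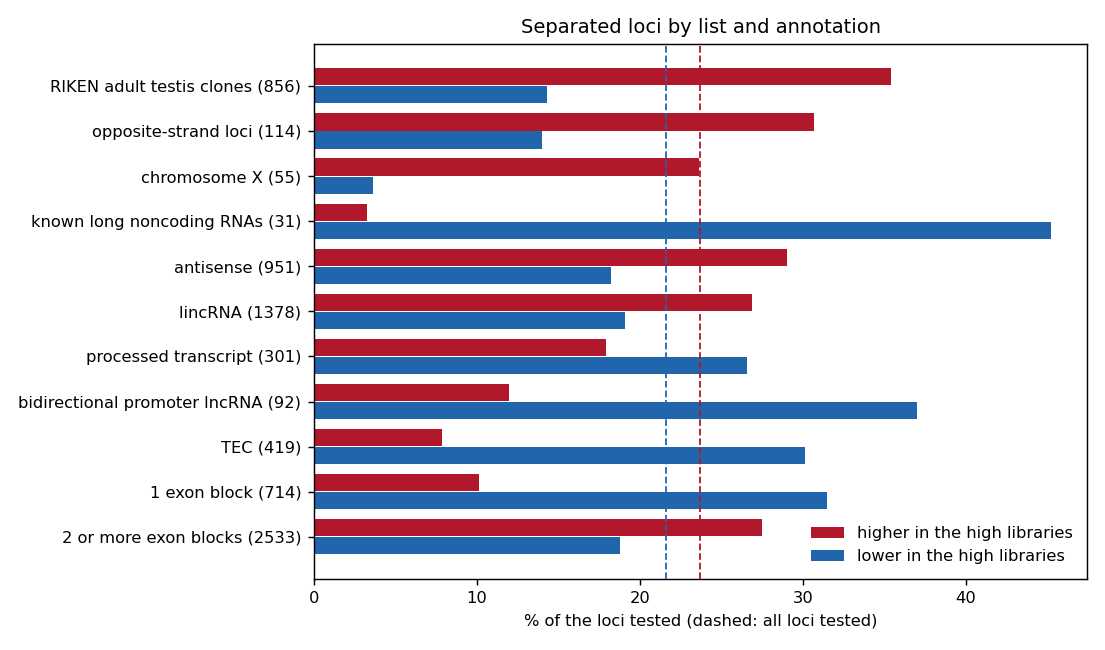
Share of loci called higher (red) and lower (blue) in the high libraries, in percent of the loci compared, for 4 lists and 7 annotation classes with their numbers of loci, beside the shares over all loci (dashed). Known long noncoding RNAs have the largest lower share drawn (45.2%) and RIKEN adult testis clones the largest higher share (35.4%).

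Few loci sat at coding genes of the late germ line. At spermiogenesis genes 2 of 5 were higher, namely 1700027A15Rik, whose own values set the sides, and Gm12945. Without 1700027A15Rik 1 of 4 was higher (25.0%), near the 23.7% of all loci. Gm12945 shares exons with Tekt2, a tektin of the sperm flagellum, and had 5.63, 3.50, 2.43, 1.67 and 5.32 FPKM in the high libraries, against 0.435, 0.282 and 0.412 FPKM in the intermediate libraries. Unlike the leading loci it was highest in plpSC replicate 3 and elST replicate 2. The 2 rows of Tmem147os at Gapdhs, a glycolytic enzyme of sperm, were below the intermediate libraries in all 5 high libraries. They missed the minimum difference of 1, at -0.51 and -0.63. At meiotic genes 2 of 5 were lower and 0 higher, against 21.6% and 23.7% of all loci, and 5 loci are too few to set these shares apart. 1700047L14Rik at Rnf212 and 4931419H13Rik at Ccna1 met the rule in neither direction, with differences of 0.95 and -0.85. A430050A11Rik lies inside Tdrd5, a piRNA pathway gene, and was listed at 0 in all 5 high libraries, against 1.29, 1.74 and 1.49 FPKM in the intermediate libraries. Another locus at Tdrd5, 4930518J20Rik, was far more abundant and did not meet the rule, with a difference of -0.38. It had 38.7 to 56.2 FPKM in the high libraries, against 59.5 to 66.3 FPKM in the intermediate libraries. 4930553I04Rik lies inside Piwil1, which encodes a piRNA-binding protein of spermatocytes, and had 0.187 to 0.878 FPKM in the high libraries, against 4.73 to 5.28 FPKM in the intermediate libraries.

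Transcript structure differed between the directions. Higher loci had a median of 865 bp of exon in 3 blocks, and 9.34% had 1 block. Lower loci had a median of 1224 bp in 2 blocks, and 32.0% had 1 block. The shares below stand beside 23.7% higher and 21.6% lower over all loci compared. Of the 714 loci with 1 block, 72 were higher (10.1%) and 225 lower (31.5%), while of the 2533 with 2 or more blocks, 696 were higher (27.5%) and 476 lower (18.8%). By annotation type, the 419 TEC loci had 7.88% higher and 30.1% lower. Of the 92 bidirectional promoter RNAs, 11 were higher and 34 lower (37.0%). The 951 antisense RNAs had 29.0% higher and 18.2% lower, and the 1378 lincRNAs 26.9% and 19.1%, both nearer to the shares over all loci. Among the 1731 loci that overlap no coding gene, 426 were higher (24.6%) and 356 lower (20.6%), close to the shares over all loci.

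Lower loci had a lower neighbour more often than loci at large. Of the 143 lower loci with another compared locus within 10 kb, 88 (61.5%) had a lower neighbour and 13 a higher one. Of the 125 higher loci with such a neighbour, 44 (35.2%) had a higher one and 14 a lower one. Over all 554 loci with such a neighbour, 27.3% had a lower one and 24.5% a higher one. Of the 286 in neither call, 181 (63.3%) had a neighbour in neither call, the call of most loci. Stretches of 3 or more lower loci, each within 10 kb of the next, numbered 4, and there was no such stretch of higher loci. One of the 4 spans chr7:73781429-73838898 and holds Gm10619, Gm45006 and Gm21269, with differences of -4.69, -3.05 and -4.18. Another spans chr17:27308316-27367492 and holds Gm49793, Gm10505 and Gm49794, with differences of -1.33 to -3.77. Both of the remaining ones lie on chromosome 6 (87980883 to 88005471 and 128165496 to 128200623).

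Promoter windows of 300 bases, 250 before to 50 after the start, were taken from RefSeq (GRCm38.p6) by symbol and strand for 407 higher and 268 lower loci. 4 motifs were searched on both strands: GGCAGTT, bound by MYB factors, GTTGCCA, the half-site of RFX factors, TGACGTCA, the cAMP response element that CREM binds, and TATAAA, known from core promoters. The MYB motif stood in 11.6% of lower windows, 6.14% of higher windows, 5.83% of the 703 windows of loci in neither call and 4.14% of the first windows of all 27025 genes. The RFX half-site stood in 10.1% of higher windows, 2.99% of lower windows, 7.54% of those in neither call and 4.46% of all genes. The cAMP response element was at 2.70% of higher and 3.73% of lower windows (1.88% of all genes), and TATAAA at 14.7% and 13.8% (14.2%). Where the RefSeq start lay within 100 bases of the annotated start used here, the MYB motif stood in 19 of 281 higher windows and 28 of 187 lower windows, and the RFX half-site in 31 and 6.

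The windows below are those of the 3 higher loci with the largest difference among those with an RFX half-site, and of the 3 lower loci over 300 bp with the most negative difference among those with a MYB motif. They are shown because these motifs differed most in share between the directions, and they were picked for holding the motif. Each is given 5′ to 3′ on the strand of its locus, with matches to any of the 4 motifs, on either strand, in capitals, and no 2 matches overlap. The windows of the higher loci are at chr5:112155977-112156276, plus strand (1700016B01Rik, 270 bp of exon), chr8:43703195-43703494, plus strand (Gm45488) and chr19:44984501-44984800, minus strand (4930414N06Rik). Those of the lower loci are at chr7:73816454-73816753, minus strand (Gm10619), chr1:91405980-91406279, minus strand (1700020N18Rik) and chr3:34826309-34826608, plus strand (Gm21388). A match is a description of letters and not of binding.
1700016B01Rik: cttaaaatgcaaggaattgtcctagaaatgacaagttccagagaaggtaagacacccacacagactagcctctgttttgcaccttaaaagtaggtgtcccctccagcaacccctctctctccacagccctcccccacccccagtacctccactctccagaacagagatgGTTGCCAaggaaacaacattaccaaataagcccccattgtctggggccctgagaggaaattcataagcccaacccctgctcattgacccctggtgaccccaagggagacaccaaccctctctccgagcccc
Gm45488: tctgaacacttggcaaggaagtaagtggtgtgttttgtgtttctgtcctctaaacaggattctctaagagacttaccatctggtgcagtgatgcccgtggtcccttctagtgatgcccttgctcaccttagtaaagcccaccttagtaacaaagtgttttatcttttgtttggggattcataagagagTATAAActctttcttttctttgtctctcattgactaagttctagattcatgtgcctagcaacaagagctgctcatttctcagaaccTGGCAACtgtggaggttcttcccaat
4930414N06Rik: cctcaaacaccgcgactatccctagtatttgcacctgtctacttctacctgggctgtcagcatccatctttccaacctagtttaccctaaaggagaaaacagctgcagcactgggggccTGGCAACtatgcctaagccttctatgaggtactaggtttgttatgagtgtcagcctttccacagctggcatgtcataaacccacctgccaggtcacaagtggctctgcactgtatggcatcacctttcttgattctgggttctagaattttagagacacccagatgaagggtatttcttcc
Gm10619: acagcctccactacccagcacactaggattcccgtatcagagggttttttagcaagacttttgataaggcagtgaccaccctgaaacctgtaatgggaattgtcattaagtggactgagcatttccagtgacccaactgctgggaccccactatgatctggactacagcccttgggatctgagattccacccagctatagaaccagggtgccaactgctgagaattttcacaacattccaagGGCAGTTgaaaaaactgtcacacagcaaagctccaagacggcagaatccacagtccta
1700020N18Rik: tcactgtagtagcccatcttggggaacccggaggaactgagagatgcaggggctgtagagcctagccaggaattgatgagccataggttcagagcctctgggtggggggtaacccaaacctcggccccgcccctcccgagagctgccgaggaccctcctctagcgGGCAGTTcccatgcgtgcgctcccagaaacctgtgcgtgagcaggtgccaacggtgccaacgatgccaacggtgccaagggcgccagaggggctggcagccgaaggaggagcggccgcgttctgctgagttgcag
Gm21388: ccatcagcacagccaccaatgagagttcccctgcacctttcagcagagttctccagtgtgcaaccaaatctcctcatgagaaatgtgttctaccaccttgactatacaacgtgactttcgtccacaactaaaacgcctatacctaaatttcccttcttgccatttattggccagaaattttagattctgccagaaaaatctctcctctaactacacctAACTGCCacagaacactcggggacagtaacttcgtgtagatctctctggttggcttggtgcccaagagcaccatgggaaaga

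Of these loci, Gm45488 had 30.2, 49.0, 57.6, 76.6 and 25.3 FPKM in the high libraries, against 5.23, 5.98 and 4.43 FPKM in the intermediate libraries. It lies inside Adam34, a gene of a testis metalloprotease family, on the other strand. 1700020N18Rik had 33.6, 18.4, 41.8, 23.1 and 40.1 FPKM in the high libraries, against 229, 274 and 253 FPKM in the intermediate libraries. Gm21388 had 8.76, 4.46, 4.10, 3.37 and 9.74 FPKM in the high libraries, against 48.3, 48.3 and 48.8 FPKM in the intermediate libraries. All 3 kept the sides apart, the first upward and the others downward. In the window of Gm10619, described above with its divergent neighbour Gm21269, the MYB motif begins at position -8 from the start. MYBL1 is known to drive pachytene piRNA precursors, long noncoding transcripts that often run from divergent promoters. Whether Gm10619, Gm21269 or any other locus here is such a precursor was not tested.

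Some abundant loci stayed level or followed no side. 1700016K05Rik had 23.1, 16.6, 32.1, 19.3 and 29.6 FPKM in the high libraries, against 21.8, 23.9 and 22.8 FPKM in the intermediate libraries. Gm13605 had 15.4, 14.8, 16.6, 18.7 and 15.99 FPKM in the high libraries, against 15.6, 17.1 and 15.7 FPKM in the intermediate libraries. These were among the 6 loci with the smallest difference at 10 FPKM or more throughout, with 1700040K01Rik, Gm20268, Gm32916 and Gm10634. Outside the 8 libraries, Gm13605 reached 5.09 FPKM in priSG-A replicate 3 and at most 0.402 FPKM in the other 9, so a locus level between the sides could still be low elsewhere. Other loci among the most abundant did differ. Gm31072 (314 bp) was lower by the rule, with a difference of -2.81, and had 344, 184, 177, 89.3 and 422 FPKM in the high libraries, against 1380, 1685 and 1425 FPKM in the intermediate libraries. Gm28967 (281 bp), which shares exon sequence with Ncapd2 on the same strand, was lower too, at -1.97. Gm10076 (384 bp), one of the most abundant on both sides, overlapped between them, with 1842 ± 1299.7 FPKM in the high libraries and 3162 ± 347 FPKM in the intermediate libraries (SD, n = 5 and 3). 4930570D08Rik (196 bp) also overlapped, at 1373 ± 810.1 FPKM in the high libraries and 551 ± 66.2 FPKM in the intermediate libraries. Gm37750 (129 bp, shorter than the fragments of any of the 8 libraries) had 27206, 24098, 14550, 0 and 0 FPKM in the high libraries and was listed at 0 in the intermediate ones.

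The labels give a comparison that did not use the measured values: spermatid-labelled types (the mean of rST and elST, 3 libraries each) against pacSC (3 libraries), in a limma fit to all 18 libraries. At an adjusted p of 0.05 (Benjamini-Hochberg), 0 of 4117 loci differed (0.0%), and 102 had an unadjusted p under 0.05. The smallest adjusted p was 0.0985. Leaving out 1 library moved the unadjusted count to 566 without pacSC replicate 3, 288 without elST replicate 3, 20 without pacSC replicate 1, 29 without pacSC replicate 2 and 32 without elST replicate 1. 1700027A15Rik, at 0, 4539, 3175, 0.570, 875 and 73.0 FPKM in the rST and elST libraries by number, against 75.8, 84.9 and 1195 FPKM in pacSC, differed by -0.90 ± 2.73 (log2, SE; limma adjusted p = 0.923). 1700009J07Rik differed by 0.35 ± 2.22 (adjusted p = 0.962) and Gm14244 by -1.71 ± 1.35 (adjusted p = 0.858). Over the 64 loci named by rule the adjusted p ran from 0.858 to 0.994, and 5 had an unadjusted p under 0.05: AY036118, Mir142hg, Gm43558, Gm44145 and Gm48573. Both sides of the split by 1700027A15Rik stood within pacSC and within elST, and the spread inside these labelled types entered each SE.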

How the data were processed

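Total RNA of sedimentation-sorted ICR mouse testis germ cells was sequenced after Trizol extraction and library construction with the Illumina TruSeq RNA kit, per the labels' protocols. The authors deposited 1 table of FPKM for 13218 loci in 18 libraries, 3 of each of 6 labelled types, although the series text speaks of duplicates. Per the submitters' processing notes, the tools were HISAT2 and StringTie, on the mm10 build. Their versions, the strand setting and any filter are not stated there or in the labels.

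Loci were matched to GENCODE release M21 on that assembly (13191 matched by identifier). The table holds no read totals, so depth (31.6 to 92.1 M fragments over the series) and fragment length were inferred from the whole multiples among low FPKM of single-exon loci. Between 98.2 and 99.2% of those values came out whole within 0.02. No count test was used, because the values are FPKM.

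Levels were compared as log2(FPKM + 1), a scale that understates the change of low loci. Loci were kept at 1 FPKM or more in 3 or more of the 8 libraries of the rule. The members, lists, tests and motifs were chosen with earlier results of these data known. Besides loci that set the rule, the text names the 12 loci with the largest difference in each direction, the 6 most abundant of each side, up to 4 loci of each list and the 6 with the smallest difference. Longer lower loci, Snhg loci, further list members, members of neighbour stretches and loci with printed promoters were added after their values were seen. The labels were compared with limma 3.58.1 in R 4.3.3 (trend and robust, two-sided, 1 coefficient per type, Benjamini-Hochberg), with loci at 1 FPKM or more in 3 or more of the 18 libraries. Scripts were tested on simulated data. Python 3.11.15, numpy 2.4.6, pandas 2.3.3 and matplotlib 3.10.9 were used.

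Alternatives were the pseudocount (0.1), filters, quantile and median-of-ratios scaling, the minimum difference, each library left out, the replicate number as a block and AY036118 class as a term.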

Additional observations from a re-analysis of the deposited data

Results flagged for a closer look

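1700027A15Rik had a signal in 1 library that belongs to neither side. It reached 11.8 FPKM (11.847) in priSG-A replicate 3, from postnatal day 6, against 0 to 0.570 FPKM in the other 9 libraries outside the rule. The same library had 298 of the 771 higher loci and 618 of the 703 lower loci at 1 FPKM or more, against 55 to 81 and 280 to 439 in those 9. Over all 3260 loci, 1943 reached 1 FPKM in it. It was used in no comparison between the sides, and its AY036118 level of 12910 FPKM places it with the high libraries in that respect.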

How the results depend on the processing

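The counts of separated loci, 771 higher and 703 lower, moved by over 1.5 times with the minimum difference and the filters. A minimum log2 difference of 2 left 273 higher and 219 lower, and no minimum gave 1075 lower. A filter of 5 FPKM left 424 lower, and loci at 1 FPKM or more in all 8 libraries, chosen after seeing the data, gave 444 higher and 265 lower. In that last set 62.6% of the separated loci were higher, against 52.3% in the main comparison. Leaving out 1 library gave 717 to 811 higher and 509 to 779 lower. A pseudocount of 0.1 gave 983 and 948, and the libraries whose label matches their side 701 and 557. Quantile scaling gave 732 and 755, and median-of-ratios scaling 725 and 783; the median difference of all loci, 0.09, was 0.02 and 0.01 under these. Of 744 values of the 64 named loci under alternatives, 727 stayed within 1 SD of the libraries and 17 moved further. The 47 separated among the 64 kept their sign throughout. Without overlap between the sides, a left-out library or another pseudocount cannot change the sign. Only quantile and median-of-ratios scaling could have changed it for these loci. Of the 6 loci with the smallest difference, none of them separated, 30 values changed sign.

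In the limma comparison by labels, no filter gave 4 loci (12224 tested), and leaving out 1 library gave 0 to 1, the 1 without pacSC replicate 3 (20 to 566 at unadjusted p under 0.05). The replicate block gave 0 loci (149 at unadjusted p under 0.05). Ordinary limma variance estimates, with neither trend nor robust fitting, gave 0 (106). Same-numbered rST and elST libraries deviated together for numbers 1 and 2 (correlations 0.85 and 0.82) but hardly for number 3 (0.13). Same-numbered pacSC libraries correlated with those of rST and elST at -0.58 to 0.62. The numbers were therefore not taken to pair the samples across the comparison. With AY036118 class as a term 0 loci were called.

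The inferred depth limits low loci most, since 1 FPKM over 1 kb is 31.6 fragments in the shallowest library. Transcripts near the fragment length have FPKM that rest on an effective length of few bases.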
